A study of Mus musculus with 15 samples.

Results

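Gene expression of 2 mouse cell lines was compared before any hormone was added: 3134, a line obtained by transformation of C127 cells from a mammary adenocarcinoma of an RIII mouse, and AtT-20, a line of pituitary corticotrophs from an LAF1 mouse. The comparison rests on 4 of the 15 exon arrays of the study, 2 of untreated 3134 and 2 of untreated AtT-20, picked by the line and the 0 h control label in their titles. Both lines had been kept in serum treated with charcoal and dextran, which is depleted of steroids, and the labels call the 0 h cells untreated in one place and vehicle treated in another. The other 11 arrays, of cells exposed to 100 nM dexamethasone for 2, 4 or 8 h, entered the estimate of the spread and are used at the end to see whether the differences between the lines were also present in treated cells. The labels do not say that the arrays of a line came from separate cultures, so errors and p-values reflect how these particular arrays vary, and part of that may be technical. Each line is a single line, so a difference between 3134 and AtT-20 cannot be told apart from a difference between mammary and pituitary origin, or between the strains.

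Corticotrophs are the endocrine cells of the anterior pituitary that make the precursor proopiomelanocortin, cut it into corticotropin with the proprotein convertase Pcsk1 and store the hormone in dense core granules until corticotropin-releasing hormone calls for its release. Their identity is set by the T-box factor Tbx19 together with Pitx1 and Neurod1. Cells of mesenchymal character are known instead for vimentin filaments, fibronectin and collagen secretion, integrin and growth factor signalling through receptor tyrosine kinases, and the transcriptional partners Yap1 and Wwtr1, which act through Tead factors. Glucocorticoids act on both lines through the receptor Nr3c1, and the set of factors a cell already holds is known to shape where that receptor binds.

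Expression values are log2 levels after quantile normalization, and the value of a gene is the median over its exon probesets. Of 15025 genes with at least 3 probesets, 10283 reached a log2 level of 6.29 in at least 1 group of line and time and were tested; a level below that is called near background here. A member that passed this filter only through the line in which it is high had to differ, so counts of tested members describe the lists and are not evidence for them. Differences are 3134 minus AtT-20 on the log2 scale, so that 1 is a 2-fold and 4 a 16-fold difference, and levels are compared only within a gene. A gene was called different at an adjusted p (limma, Benjamini-Hochberg over all tested genes) under 0.05.

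The lines differed over much of the transcriptome. Among the 10283 tested genes, 2444 (23.8%) were higher in 3134 and 3082 (30%) were higher in AtT-20, and 1540 (15%) and 1891 (18.4%) of them differed by at least 2-fold. Differences of at least 16-fold were found for 252 genes (2.45%) in favour of 3134 and 272 (2.65%) in favour of AtT-20. Both lines reached the level of 6.29 for 7975 of the tested genes, whereas 777 called genes reached it in 3134 alone and 1080 in AtT-20 alone. The correlation across genes was 0.99 between the 2 arrays of 3134, 0.98 between those of AtT-20, and 0.81 and 0.83 between the lines; genes are not independent replicates. The arrays hold RNA of whole cultures, in which fewer cells of a kind and less RNA per cell cannot be told apart. The arrays of the lines did not overlap for 7868 tested genes (76.5%). The median difference over all tested genes was -0.10. It was 0.21 on the deposited scale, without the quantile normalization, where 2013 genes were called. With the replicate block on that scale 3386 genes were higher in 3134 and 2197 in AtT-20, against 2444 and 3082 here, so differences near 0 have no settled direction. Of the genes named below, 42 with differences of up to 2.11 in size lost their call on the deposited scale without the block. The number of arrays limits the precision, with a median standard error of 0.22 for a difference.

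**Figure D1:**
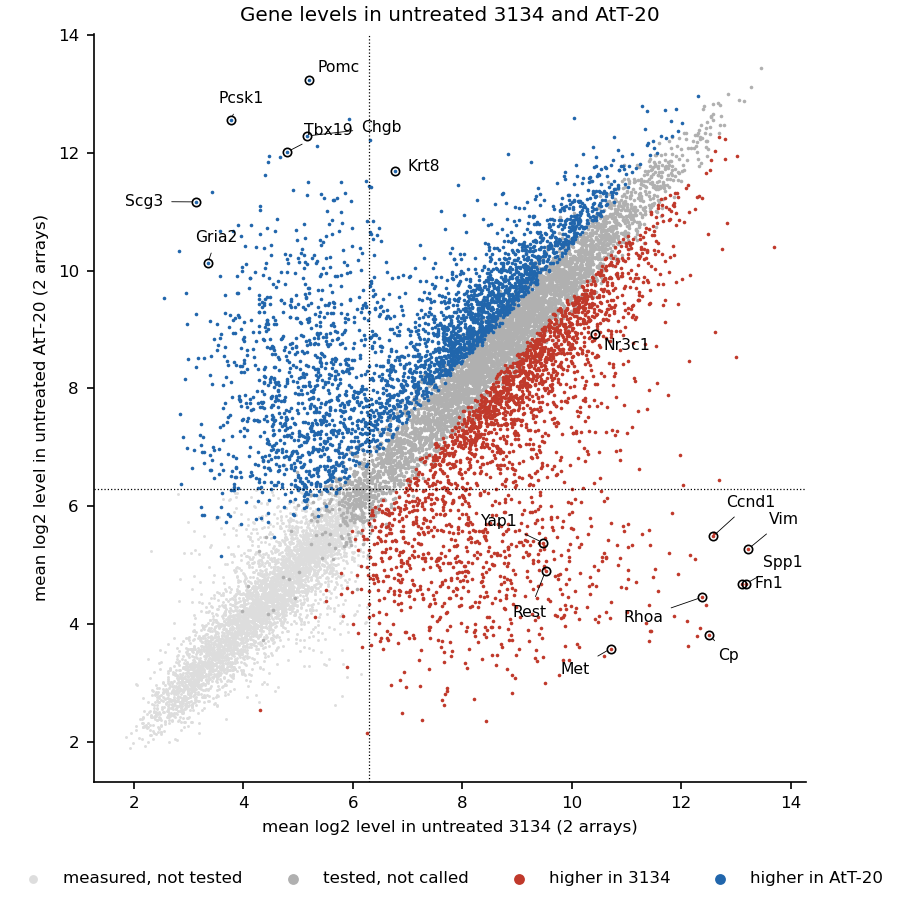
Mean log2 level of each measured gene over the 2 untreated 3134 arrays (x axis) and the 2 untreated AtT-20 arrays (y axis), with called genes coloured by the line in which they were higher and selected genes of both lines labelled. The labelled granule and corticotroph genes and Gria2 lie at the upper left, near background in 3134. Krt8 lies on the same side, but above the dotted level in 3134. Fn1, Spp1, Vim, Rhoa, Met and the other labelled genes except Nr3c1 lie at the lower right, near background in AtT-20. Dotted lines mark the level needed for testing.

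The gene with the largest difference was Pcsk1, the convertase that cuts proopiomelanocortin. Its level was 12.66 and 12.45 on the AtT-20 arrays and 3.69 and 3.85 on the 3134 arrays, a difference of -8.79 ± 0.15 (SE, adjusted p = 8.17e-12). Pomc, the hormone precursor itself, was at 13.48 and 12.98 in AtT-20 and 5.19 and 5.21 in 3134, a difference of -8.03 ± 0.37 (SE, adjusted p = 4.21e-09). For both genes the 3134 arrays lay near background and far below both AtT-20 arrays. The next largest differences in favour of AtT-20 were Scg3 (-8.03) and Resp18 (-7.91), which are granule proteins, Efcab1 (-7.50), Ddc (-7.48), the decarboxylase of amine transmitter synthesis, Atp1b1 (-7.38), a subunit of the sodium pump, and Uchl1 (-7.26), a ubiquitin hydrolase of neurons and endocrine cells. They were followed by Cth (-7.23), Tbx19 (-7.21), Chgb (-7.12), Pde3b (-7.10), Bhlhb9 (-6.98), Gdap1 (-6.87) and Klhl13 (-6.86).

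On the 3134 side the largest difference was that of Cp, the copper ferroxidase ceruloplasmin, at 12.51 and 12.52 in 3134 against 3.76 and 3.86 in AtT-20, a difference of 8.70 ± 0.15 (SE, adjusted p = 8.17e-12). Spp1, the secreted phosphoprotein osteopontin, stood at 13.21 and 13.16 against 4.41 and 4.97, and the fibronectin gene Fn1 at 13.11 and 13.13 against 4.48 and 4.88. All 3 genes were near background in AtT-20. Gsta4 (8.50), a glutathione transferase that acts on lipid aldehydes, and Anxa1 (8.49), the phospholipid-binding annexin known as a mediator of glucocorticoid action, differed by a similar amount. The calcium-binding proteins S100a11 (8.40), S100a10 (8.13) and S100a6 (8.05), vimentin (Vim, 7.95), the small GTPase Rhoa (7.93), the secreted protease Htra1 (7.73), Ankrd1 (7.71), Ly6a (7.57), Slc25a24 (7.56) and Car5b (7.34) completed the 15 largest.

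The labelled cell types were first set against their defining genes. Of 8 measured corticotroph markers 7 were tested, and all 7 were higher in AtT-20, against 30% of all tested genes, with a median difference of -5.73: Pcsk1, Pomc, Tbx19, Neurod1, Pitx1, the receptor Crhr1 and the carboxypeptidase Cpe. The neuropeptide gene Gal, which some corticotrophs express, was near background in both lines. Of the markers of other pituitary cell types, 2 of 13 measured were tested. Gh, Prl, Tshb, Fshb and Cga were near background in both lines, and Lhb was not called, with 5.92 and 6.34 in AtT-20 and 5.97 and 6.47 in 3134. Pcsk2, the convertase of melanotrophs, was at 7.04 and 6.07 in AtT-20 and 4.37 and 4.42 in 3134 and was called. Of 12 measured immune and 9 measured endothelial markers, 3 each were tested. Cd68 (1.62), Lyz2 (0.62), Cdh5 (2.84) and Flt1 (1.99) were higher in 3134, and Cd79a (-1.78) and Vwf (-1.66) in AtT-20. Lyz2 did not pass the test without the first array of 3134 (0.40) or of AtT-20 (0.53). Ptprc and Pecam1, which define those cells, were near background in both lines.

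Few markers of mammary epithelium were above background in 3134. Of 20 measured mammary epithelial markers only 6 were tested, and 4 of these were higher in AtT-20. Krt8, a keratin of simple epithelium, was at 6.84 and 6.70 in 3134 and 11.93 and 11.44 in AtT-20. Its partner Krt18 was at 4.89 and 5.02 in 3134 and 10.23 and 9.70 in AtT-20. The cell adhesion genes Cdh1 and Epcam, the basal keratin Krt5 and the milk protein genes Csn1s1, Csn2 and Csn3 were near background in both lines. Those higher in 3134 were Krt14 (0.96) and Gata3 (2.80), a factor of luminal cells, at 8.38 and 8.45 in 3134 and 5.43 and 5.80 in AtT-20. By contrast 13 of 20 measured mesenchymal and fibroblast markers were tested, and 10 of these were higher in 3134 and none in AtT-20. Of all tested genes 23.8% were higher in 3134. The median difference of the tested markers was 4.56. The markers higher in 3134 included Vim, Fn1, Col1a2, S100a4, Sparc and Pdgfrb, while Col1a1, Cdh2 and Twist1 were not called. The contractile genes Acta2, Tagln and Cnn1 and the matrix genes Dcn, Lum and Postn were near background in both lines. The labels give both lines as male; of the Y-linked genes only Eif2s3y and Kdm5d were measured, and both were near background on all 4 arrays.

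**Figure D2:**
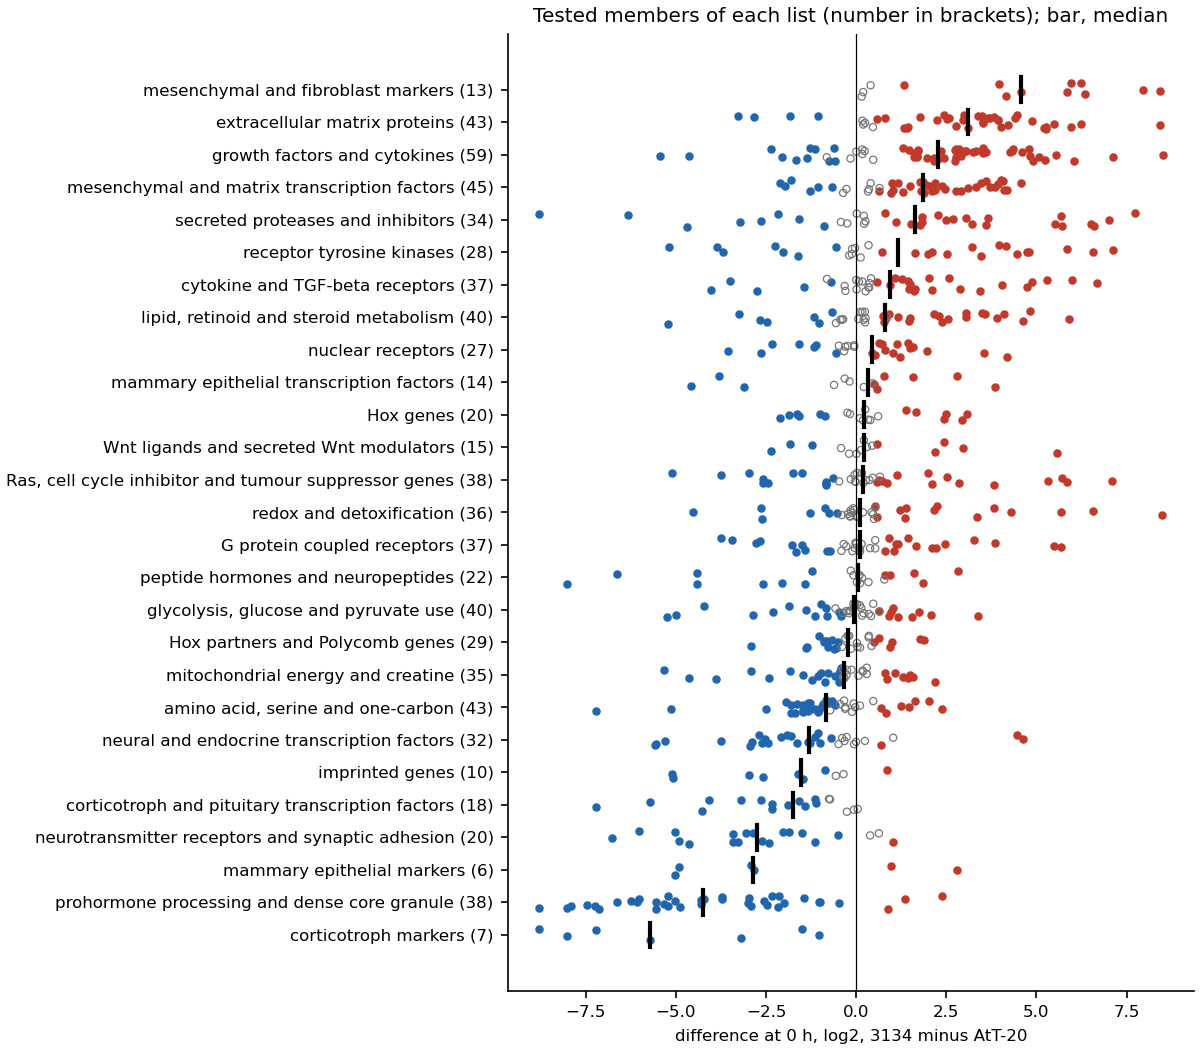
Difference between untreated 3134 and AtT-20 (x axis, log2, 3134 minus AtT-20) for each tested member of 27 gene lists (rows), with called members filled, uncalled members open and the list's median as a bar. The granule, corticotroph and neurotransmitter receptor lists lie to the left and the matrix, growth factor and mesenchymal lists to the right.

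Among transcription factors, those of the corticotroph and pituitary lineage were higher in AtT-20 or did not pass the test. Of 30 listed, 25 were measured and 18 tested. In AtT-20 13 were higher and in 3134 none (median -1.74), 72.2% called against 53.7% of all tested genes. Tbx19, which activates the Pomc gene, was at 12.09 and 11.95 in AtT-20 and 4.99 and 4.62 in 3134. Neurod1, its basic helix-loop-helix partner on the same gene, was at 10.82 and 10.57 against 5.31 and 4.63. Pitx1, the homeobox factor of the whole anterior pituitary, was at 8.50 and 8.57 against 5.10 and 5.61. The 2 lines did not overlap for any of the 3 factors, nor for 76.5% of all tested genes. The retinal and pituitary homeobox factor Six6 (-4.29), the progenitor factor Sox2 (-4.09) and the LIM factor Lhx2 (-2.33) were also higher in AtT-20, as were the orphan receptors Nr4a2 (-2.34), Nr4a3 (-1.59) and Nr4a1 (-1.10), which relay corticotropin-releasing hormone to Pomc. Nr4a3 and Nr4a1 lost their call on the deposited scale without the block. Lhx3, Isl1, Hesx1 and Pax7, known from other steps of pituitary development, were near background in both lines.

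Neural and endocrine factors followed the same direction. Of 32 tested, 21 were higher in AtT-20 and 3 in 3134 (median -1.30), 75% called against 53.7% of all tested genes. St18 (-5.57) and Myt1 (-5.56), related zinc finger factors of neurons and islet cells, Prox1 (-5.30), Sox11 (-3.74), Nkx2-2 (-2.95), Hes6 (-2.89), Foxa2 (-2.70) and Insm1 (-2.53), a factor of endocrine precursors, were higher in AtT-20. The largest difference in the opposite direction was Rest, the repressor that keeps neuronal genes silent outside the nervous system. Rest was at 9.63 and 9.42 in 3134 and at 4.93 and 4.88, near background, in AtT-20, a difference of 4.62 ± 0.16 (SE, adjusted p = 5.39e-10). Ebf1 (4.45) was the other factor of this list with a large difference in favour of 3134.

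Mesenchymal factors went the other way. Of 45 tested, 33 were higher in 3134 and 6 in AtT-20 (median 1.84), 86.7% called against 53.7% of all tested genes. Yap1, a coactivator that carries the output of the Hippo pathway, was at 9.53 and 9.41 in 3134 and near background at 5.27 and 5.49 in AtT-20. The related Wwtr1 was at 9.81 and 9.89 in 3134 and 5.56 and 5.93 in AtT-20. Of the Tead factors that bring them to DNA, Tead2 (3.60), Tead4 (2.17) and Tead3 (1.29) were higher in 3134. Ankrd1 and Ccn1, which are widely used as readouts of Yap1, differed by 7.71 and 5.55, and Ccn2 by 1.72. Among the remaining members, Prrx1 (4.56), Zeb2 (4.18), Runx1 (4.03), Tbx18 (3.93), Hmga2 (3.85), Foxf2 (3.72) and the AP-1 subunit Fosl1 (3.10) were higher in 3134. The classical inducers of mesenchymal transition were not all called: Snai1 (0.98) and Twist2 (2.76) were higher in 3134, and Twist1 (0.40), Snai2 (0.65) and Zeb1 (0.35) did not pass the test. With the replicate block Snai2 and Zeb1 did pass, at adjusted p of 0.00715 and 0.0415. The 6 members higher in AtT-20 included Tcf4 (-2.11), Creb3l1 (-1.97) and Meox1 (-1.81).

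Factors of mammary epithelium were divided. Of 14 tested, 6 were higher in 3134 and 3 in AtT-20 (median 0.33), 64.3% called against 53.7% of all tested genes. Tfap2a (3.86), Gata3 (2.80) and the oestrogen receptor Esr1 (1.57) were higher in 3134. Foxa1, the pioneer factor of luminal cells, was at 10.14 and 9.95 in AtT-20 and near background at 5.61 and 5.31 in 3134, and the epithelial factors Elf3 (-3.81) and Grhl1 (-3.12) were also higher in AtT-20. Elf5, Ehf, Grhl2, Ovol1 and Trp63 were near background in both lines.

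**Figure D3:**
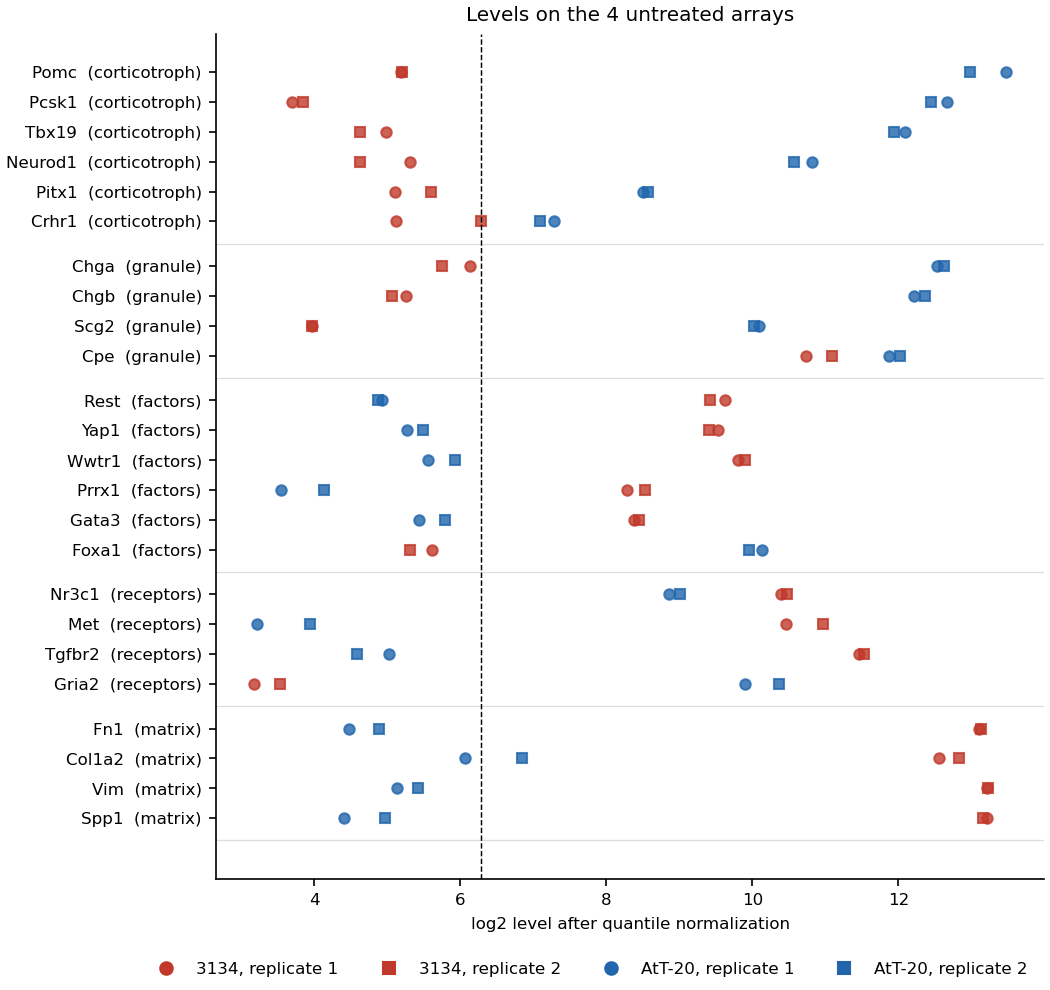
Log2 level of 24 genes on each of the 4 untreated arrays (x axis; 2 points for 3134 and 2 for AtT-20), grouped by role (rows), with the level needed for testing as a dashed line. The lines do not overlap for any gene shown, nor for 76.5% of all tested genes. The space between the lines is wider than the gap between arrays of the same line for all but Crhr1.

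Of the Hox genes, which record the position of a cell along the body axis, 33 were measured and 20 tested. Of these, 6 were higher in 3134 and 6 in AtT-20, a share of 60% called against 53.7% of all tested genes, and the split was 5 and 1 on the deposited scale. In the Hoxa cluster Hoxa5 (8.93 and 8.88 in AtT-20, 6.63 and 6.98 in 3134), Hoxa6 (-1.58), Hoxa7 (-1.85) and Hoxa3 (-1.02) were higher in AtT-20, and Hoxa9 (1.39) was higher in 3134. The other 3134 genes lay in the Hoxb and Hoxc clusters. Hoxc13 was at 8.10 and 8.13 in 3134 and 4.82 and 5.27 in AtT-20, Hoxb9 at 8.63 and 8.67 against 5.57 and 5.83, and Hoxb13 and Hoxb4 differed by 2.48 and 2.44. Hoxc10 (-1.65) was higher in AtT-20 although its neighbour Hoxc9 (1.67) was higher in 3134. In the Hoxd cluster Hoxd1, Hoxd3, Hoxd9, Hoxd10 and Hoxd13 were near background in both lines. The partners Pbx3 (-1.37) and Pbx4 (-1.04) and the Polycomb subunits Pcgf6 (-2.91) and Cbx2 (-1.38) were higher in AtT-20, and Pcgf5 (1.78) and Tgif1 (1.89) in 3134. Of the 29 tested partners and Polycomb genes 6 were higher in 3134 and 12 in AtT-20, but the split was 8 and 4 on the deposited scale with the replicate block, so no direction is given for that list.

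The glucocorticoid receptor was expressed in both lines and was higher in 3134. Nr3c1 stood at 10.39 and 10.47 on the 3134 arrays and 8.86 and 9.01 on the AtT-20 arrays. The difference was 1.50 ± 0.17 (SE, limma, adjusted p = 1.02e-05), with no overlap, as for 76.5% of all tested genes. Of the 27 nuclear receptors tested, 14 were higher in 3134 and 7 in AtT-20, 77.8% called against 53.7% of all tested genes. On the deposited scale without the block 4 were higher in 3134 and 3 in AtT-20. Vdr, the receptor of vitamin D, was at 8.80 and 8.99 in 3134 and near background at 4.40 and 5.01 in AtT-20. Rorb (3.55) and Rora (-3.56), related receptors that bind the same DNA element, were each detected in a different line: Rorb was at 8.06 and 8.16 in 3134 and 4.56 and 4.54 in AtT-20, whereas Rora was at 4.96 and 5.38 in 3134 and 8.91 and 8.55 in AtT-20. The lipid sensor Pparg (1.97), its partner Rxra (1.22), the retinoic acid receptor Rarg (1.14) and Esr1 (1.57) were higher in 3134. Esrrg (-2.65) and Nr2f1 (-1.17) joined the Nr4a receptors on the AtT-20 side. Rxra, Rarg, Esr1 and Nr2f1 lost their call on the deposited scale without the block.

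Receptor tyrosine kinases, which bind growth factors at the cell surface, were more often higher in 3134. Of 28 tested, 15 were higher in 3134 and 7 in AtT-20 (median 1.17), 78.6% called against 53.7% of all tested genes. Met, the receptor of hepatocyte growth factor, was at 10.47 and 10.96 in 3134 and 3.22 and 3.95 in AtT-20, a difference of 7.13 ± 0.30 (SE, adjusted p = 2.40e-09). Axl, which binds Gas6, was at 11.63 and 11.91 against 5.04 and 5.38, and Pdgfrb at 10.89 and 10.80 against 5.15 and 4.87. All 3 were near background on both AtT-20 arrays. Epha2 (4.80), Igf1r (4.75), Ephb4 (4.46), Erbb2 (4.17) and Pdgfra (3.97) were likewise higher in 3134. Ror1, a receptor of Wnt ligands, was at 9.65 and 10.01 in AtT-20 and 4.67 and 4.59 in 3134, and Insrr (-3.85), Epha5 (-3.70), Kit (-2.26) and Fgfr2 (-2.04) were also higher in AtT-20. Egfr was near background in both lines.

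Cytokine and TGF-beta receptors showed a similar lean. Of 37 tested, 20 were higher in 3134 and 5 in AtT-20 (median 0.93), 67.6% called against 53.7% of all tested genes. Tgfbr2, the subunit that binds TGF-beta, was at 11.46 and 11.53 in 3134 and near background at 5.02 and 4.58 in AtT-20, a difference of 6.69 ± 0.20 (SE, adjusted p = 2.55e-10), and the coreceptor Tgfbr3 differed by 4.73. Tgfbr1, with which Tgfbr2 must pair, was at 9.36 and 9.54 in 3134 and 8.90 and 9.28 in AtT-20 and did not pass the test, but did with the replicate block (difference 0.36, adjusted p = 0.0283). Receptors of the interleukin 6 family were divided: Osmr (5.30) and the shared subunit Il6st (1.27) were higher in 3134, and Lifr (-3.50) and Cntfr (-4.02) in AtT-20. Tnfrsf23 (5.99), Il13ra1 (4.88) and Il1r1 (4.04) were higher in 3134, and Tnfrsf21 (-2.76) in AtT-20.

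Of the receptors coupled to G proteins, 14 of 37 tested members were higher in 3134 and 10 in AtT-20. The share called was 64.9% against 53.7% of all tested genes. Lpar1, for lysophosphatidic acid, was at 10.56 and 10.09 in 3134 and 4.41 and 4.90 in AtT-20, and the thrombin receptor F2r at 10.79 and 10.86 against 4.95 and 5.73. Smo (3.27), the transducer of Hedgehog signals, Lpar6 (3.85) and Fzd6 (2.47) were also higher in 3134. The calcium-sensing receptor Casr was at 9.27 and 8.88 in AtT-20 and 5.35 and 5.31 in 3134, and Cxcr4 (-3.45), Fzd10 (-2.77) and Vipr2 (-2.66) were also higher in AtT-20. Crhr1, the receptor through which hypothalamic corticotropin-releasing hormone drives corticotrophs, was at 7.29 and 7.10 in AtT-20 and 5.12 and 6.28 in 3134, a difference of -1.49 ± 0.40 (SE, adjusted p = 0.00796). The 2 arrays of 3134 lay further apart than those of AtT-20, and without the first of them the difference was -0.91 and did not pass the test (limma, adjusted p = 0.0991).

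Transmitter receptors and synaptic adhesion molecules were mostly higher in AtT-20 or not tested. Of 66 listed, 56 were measured and 20 tested, 90% of these called against 53.7% of all tested genes. In AtT-20 17 were higher, and 1, the purinergic channel P2rx4 (1.03), was higher in 3134 (median -2.74). Gria2, an AMPA receptor subunit, was at 9.89 and 10.37 in AtT-20 and 3.17 and 3.53 in 3134. Nrcam (-6.03), Glrb (-5.02), Ncam1 (-4.92), Grin1 (-4.63), Ncam2 (-3.41), Htr3a (-3.41) and Cadm2 (-3.29) followed. The 36 measured members that were not tested, among them Gria1, Gria3, Gria4 and the GABA receptor subunits Gabra2, Gabra3 and Gabrb2, were near background in both lines.

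The machinery that processes and stores peptide hormones was higher in AtT-20 almost throughout. Of 45 listed genes 42 were measured and 38 tested, and all 38 were called: 35 higher in AtT-20 and 3 in 3134, with a median of -4.26 against -0.10 for all tested genes. Chga, a granin of the granule core, was at 12.53 and 12.63 in AtT-20 and 6.13 and 5.75 in 3134. The second granin, Chgb, was at 12.21 and 12.36 in AtT-20 and 5.26 and 5.06 in 3134. Scg2 (-6.08), Scg3 (-8.03) and Scg5 (-5.03), the convertase inhibitor Pcsk1n (-4.29) and the granule membrane proteins Ptprn (-5.23) and Ptprn2 (-4.23) were near background or weak in 3134. Release is carried by calcium sensors and fusion proteins, of which Snap25 (-6.25), Syt1 (-5.55), Syt4 (-5.54), Cadps (-5.34), Rims2 (-4.89) and Rab3c (-6.02) were higher in AtT-20. The exceptions were Rab3b (2.38), the carboxypeptidase Cpd (1.35) and Stx1a (0.88), which were higher in 3134. Stx1a did not pass the test without the first 3134 array (0.77) or the second AtT-20 array (0.58). Cpe, the carboxypeptidase that trims the cut peptides, was well above background in both lines at 10.74 and 11.10 in 3134 and 11.87 and 12.02 in AtT-20.

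The promoters of Pomc and of 3 granule genes are shown because the 3 granule genes hold the same short element and all 4 genes were at least 16-fold higher in AtT-20. The stretches are the 250 bases before the annotated start, from RefSeq on GRCm38.p6, in the direction of transcription, and capitals mark matches, on either strand, to the cAMP response element TGACGTCA, the AP-1 site TGACTCA, the TEAD site GGAATG and the TATA box TATAAA.
Pomc (chr12:3954695-3954944, plus strand): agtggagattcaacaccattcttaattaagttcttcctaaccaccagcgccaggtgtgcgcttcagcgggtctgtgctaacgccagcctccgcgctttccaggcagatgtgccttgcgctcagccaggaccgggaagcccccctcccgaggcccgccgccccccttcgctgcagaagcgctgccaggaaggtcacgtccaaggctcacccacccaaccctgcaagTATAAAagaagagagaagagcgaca
Pcsk1 (chr13:75089607-75089856, plus strand): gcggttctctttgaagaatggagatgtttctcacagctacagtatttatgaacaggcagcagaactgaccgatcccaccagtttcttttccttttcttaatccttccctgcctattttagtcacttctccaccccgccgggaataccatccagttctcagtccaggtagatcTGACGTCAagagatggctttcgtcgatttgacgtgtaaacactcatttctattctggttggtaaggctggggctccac
Scg2 (chr1:79440027-79440276, minus strand): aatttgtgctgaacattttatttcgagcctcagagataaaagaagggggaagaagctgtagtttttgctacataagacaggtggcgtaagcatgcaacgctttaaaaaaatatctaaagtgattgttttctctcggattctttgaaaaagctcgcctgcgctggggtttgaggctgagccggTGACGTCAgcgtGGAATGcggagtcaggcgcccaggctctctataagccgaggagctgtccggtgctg
Chgb (chr2:132781392-132781641, plus strand): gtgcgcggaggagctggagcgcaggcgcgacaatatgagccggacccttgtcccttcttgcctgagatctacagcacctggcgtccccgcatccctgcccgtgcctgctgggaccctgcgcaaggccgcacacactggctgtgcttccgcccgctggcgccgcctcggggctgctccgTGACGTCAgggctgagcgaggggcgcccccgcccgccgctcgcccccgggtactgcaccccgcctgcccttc
The cAMP response element began 78 bases before the start in Pcsk1, 68 in Scg2 and 72 in Chgb, and Pomc held a TATA box 25 bases before its start. In Scg2 a TEAD site followed the element 56 bases before the start; the matches did not overlap. The cAMP response element was present in 4 of the 29 granule list genes with a promoter entry (13.8%; the fourth was Th), against 255 of 8370 tested genes (3.05%) and 1.55% of all 32851 promoter entries. Over the genes at least 16-fold higher in AtT-20 the share was 8 of 200 (4%), and over those at least 16-fold higher in 3134 it was 5 of 198 (2.53%). These matches are letters in a window, and no binding was measured.

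Other hormones and neuropeptides were few. Of 56 measured, 22 were tested, and 8 were higher in AtT-20 and 5 in 3134, a share of 59.1% called against 53.7% of all tested genes. Besides Pomc the largest difference was Stc1, a stanniocalcin, at 11.22 and 10.33 in AtT-20 and 3.87 and 4.41 in 3134. Inha (-4.41), the inhibin alpha subunit, Stc2 (-4.40) and Calca (-2.05) were also higher in AtT-20. Inhba (2.84), the activin subunit, and Adm (1.86), adrenomedullin, were higher in 3134.

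Growth factors, cytokines and guidance cues were mainly expressed by 3134. Of 59 tested, 41 were higher in 3134 and 11 in AtT-20 (median 2.28), 88.1% called against 53.7% of all tested genes. After Spp1 the largest was Sema3a, a repulsive guidance cue, at 10.50 and 10.68 in 3134 and 3.24 and 3.69 in AtT-20. Kitl (6.03), the ligand of Kit, was higher in the line in which Kit itself was lower. Ccn1 (5.55), Angptl2 (5.23), Il33 (5.07), Nrg1 (4.92), Slit2 (4.79), Ptn (4.31) and Csf1 (3.60) were higher in 3134. The ligand Tgfb1 was at 9.26 and 9.33 in 3134 and 4.83 and 5.23 in AtT-20, in the same direction as its receptor Tgfbr2. Chemokines on the 3134 side were Cxcl5 (4.59), Ccl2 (4.36), Cxcl12 (3.03) and Cxcl1 (2.16). Members higher in AtT-20 were Fgf21, a stress-induced hormone of metabolism, at 11.87 and 10.75 against 5.82 and 5.89, Bmp7 (-4.64), Ntn4 (-2.36) and Gdf15 (-2.07). For both Fgf21 and Bmp7, at 9.67 and 8.42 in AtT-20, the gap between the arrays of that line was wider than 1 unit. Of 15 tested Wnt ligands and modulators, the decoy Sfrp2 (5.57), Wnt5a (2.96) and Wnt10b (2.43) were higher in 3134, and Sfrp5 (-2.36) and Wnt10a (-1.82) in AtT-20.

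Extracellular matrix genes were mostly higher in 3134. Of 43 tested, 35 were higher in 3134 and 4 in AtT-20 (median 3.11), 90.7% called against 53.7% of all tested genes. Besides Fn1, Sparc (5.95), Ltbp1 (5.48), Lamb1 (5.28), Col6a3 (5.27), Matn2 (5.22) and Thbs2 (4.20) were higher in 3134. The fibrillar collagen gene Col1a2 was at 12.56 and 12.83 in 3134 and 6.06 and 6.84 in AtT-20, whereas Col1a1, whose product forms the same trimer, was at 6.73 and 6.98 in 3134 and 6.36 and 6.96 in AtT-20 and was not called. Lama4 (-3.28), Thbs3 (-2.82), Eln (-1.85) and Ltbp4 (-1.06) were the 4 matrix genes higher in AtT-20. Dcn, Lum, Postn and Tnc were near background in both lines. Among secreted proteases and inhibitors 20 of 34 tested were higher in 3134 and 8 in AtT-20 (median 1.64). The share called was 82.4% against 53.7% of all tested genes. The 3134 side was led by Htra1, Adamts1 (7.01), Prss23 (6.59), Timp1 (6.51) and Mmp14 (5.53). On the AtT-20 side stood Pcsk1, Serpine2 (-6.32), a thrombin inhibitor, Serpini1 (-4.69), a neuronal inhibitor of plasminogen activators, and Mmp16 (-3.21).

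The promoters of 3 genes at least 16-fold higher in 3134 are shown for the AP-1 and TEAD sites they hold, in the same form.
Met (chr6:17463707-17463956, plus strand): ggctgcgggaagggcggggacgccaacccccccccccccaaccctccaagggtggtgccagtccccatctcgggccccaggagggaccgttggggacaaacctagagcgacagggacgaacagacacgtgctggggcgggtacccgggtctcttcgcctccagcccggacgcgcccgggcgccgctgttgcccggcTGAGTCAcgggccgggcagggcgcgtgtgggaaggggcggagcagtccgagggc
S100a11 (chr3:93520246-93520495, plus strand): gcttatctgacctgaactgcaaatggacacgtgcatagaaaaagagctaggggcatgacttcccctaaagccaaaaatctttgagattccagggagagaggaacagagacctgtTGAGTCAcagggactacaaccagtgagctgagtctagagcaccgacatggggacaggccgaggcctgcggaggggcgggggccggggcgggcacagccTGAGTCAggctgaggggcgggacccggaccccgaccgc
Ankrd1 (chr19:36119845-36120094, minus strand): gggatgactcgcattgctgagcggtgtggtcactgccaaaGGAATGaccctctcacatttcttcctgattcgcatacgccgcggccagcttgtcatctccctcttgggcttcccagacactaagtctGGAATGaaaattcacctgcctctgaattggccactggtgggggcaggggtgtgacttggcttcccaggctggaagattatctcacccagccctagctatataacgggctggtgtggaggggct
Met held an AP-1 site 54 bases before its start, S100a11 held AP-1 sites at 136 and 38 bases, and Ankrd1 held TEAD sites at 210 and 123 bases. Among the 198 genes at least 16-fold higher in 3134 that had a promoter entry, 16 (8.08%) held an AP-1 site and 43 (21.7%) a TEAD site. The shares were 3.5% and 13% over 200 genes at least 16-fold higher in AtT-20, and 4.11% and 12.8% over all 8370 tested genes. They were 3.12% and 18.8% over the extracellular matrix list, and 2.7% and 13.5% over the growth factor and cytokine list. The TATA box was more frequent in both strongly different sets, with 17.7% on the 3134 side and 14% on the AtT-20 side against 7.85% of tested genes. Of all 32851 promoter entries 4.46% held the AP-1 site, 12.6% the TEAD site and 12.4% the TATA box. The 16-fold sets were chosen by their differences, and these shares are a description with no test.

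Among metabolic genes the larger differences fell on particular enzymes and isoforms. Of 40 tested genes of glycolysis and glucose use, 9 were higher in 3134 and 13 in AtT-20, a share of 55% called against 53.7% of all tested genes. The split was 12 and 9 on the deposited scale with the replicate block, so no direction is given for the list. The common enzymes Pgk1 (0.10) and Pkm (0.17) did not pass the test. Isoforms known from brain and endocrine cells were higher in AtT-20: Aldoc was at 10.97 and 10.76 against 5.55 and 5.69 in 3134, and Eno2 at 9.96 and 9.81 against 6.73 and 7.33. The lactate exporter Slc16a3 was at 10.81 and 10.45 in AtT-20 and 5.19 and 6.05 in 3134, and the glycogen phosphorylase of muscle, Pygm, differed by -4.21. Ldhb (3.37), the lactate dehydrogenase subunit associated with lactate use, Eno3 (1.75) and Slc16a1 (0.96) were higher in 3134. Pdk4 (2.07) and Pfkfb3 (1.56), which gate pyruvate oxidation and glycolytic flux, were higher in 3134, Pfkfb3 with both lines near background.

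Among mitochondrial and creatine genes, Gatm, Ckmt1 and Ckb were higher in AtT-20. Gatm, the first enzyme of creatine synthesis, was at 9.19 and 8.65 in AtT-20 and 3.66 and 3.51 in 3134, Ckmt1, the mitochondrial creatine kinase, differed by -3.88, and Ckb, the cytosolic one, by -1.84, whereas the creatine importer Slc6a8 (1.43) was higher in 3134. Bdh1 (-4.63), for ketone bodies, and the uncoupling protein homologue Ucp2 (-2.93) were higher in AtT-20. For entry of fatty acids into mitochondria, Cpt1a (2.18) was higher in 3134 and the neuronal form Cpt1c (-2.43) in AtT-20, and the dehydrogenases Acadm (1.51) and Acadl (1.58) were higher in 3134. Of 35 tested genes of this list 8 were higher in 3134 and 16 in AtT-20, 68.6% called against 53.7% of all tested genes. On the deposited scale without the block 4 were higher in 3134 and 5 in AtT-20, and Ckb lost its call.

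Amino acid, serine and one-carbon genes leaned towards AtT-20, with 26 of 43 tested members higher there and 7 higher in 3134 (median -0.84). The share called was 76.7% against 53.7% of all tested genes, although 3 were called each way on the deposited scale without the block. Cth, which makes cysteine by transsulfuration, was at 11.66 and 11.57 in AtT-20 and near background at 4.22 and 4.56 in 3134, a difference of -7.23 ± 0.22 (SE, adjusted p = 2.95e-10). The arginine transporter Slc7a3 was at 11.46 and 11.42 against 5.99 and 6.62. Serine synthesis and the mitochondrial folate enzymes were higher in AtT-20 by smaller amounts, with -1.95 for Psph, -1.79 for Shmt2, -1.70 for Mthfd2 and -1.33 for Psat1. On the deposited scale without the block Psph, Shmt2, Mthfd2 and Psat1 all lost their call. Pycr1 (-2.49), which makes proline, was higher in AtT-20, and Prodh (2.38), which degrades it, was higher in 3134. Maoa (2.02) and Sat1 (1.63) were higher in 3134.

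Lipid genes leaned towards 3134, with 21 of 40 tested members higher there and 7 higher in AtT-20 (median 0.79). The share called was 70% against 53.7% of all tested genes. Pla2g4a, the phospholipase that releases arachidonic acid, was at 9.19 and 9.47 in 3134 and 3.14 and 3.70 in AtT-20, and Ptgs1 (3.92), the cyclooxygenase that uses it, was higher in the same line. Aldh3a1 (4.83), Agpat2 (4.63), the retinaldehyde dehydrogenase Aldh1a1 (3.48), the desaturase Scd1 (2.37) and Lrp1 (3.58) were higher in 3134. The oxysterol hydroxylase Cyp7b1 was at 7.94 and 8.39 in AtT-20 and 2.72 and 3.16 in 3134, and the cholesterol exporters Abcg1 (-2.68) and Abca1 (-2.48) and the triglyceride enzyme Dgat2 (-3.25) were also higher in AtT-20. Among the 36 tested redox and detoxification genes 13 were higher in 3134 and 7 in AtT-20, a share of 55.6% called against 53.7% of all tested genes. Mgst1 (6.56), Gpx8 (5.68), Gpx1 (4.30) and Nqo1 (3.82) were higher in 3134 and the secreted peroxidase Gpx3 (-4.54), Mt2 (-2.63) and Mt3 (-2.60) in AtT-20.

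The lines also used different members of growth-control families. Ccnd1, a D-type cyclin, was at 12.66 and 12.51 in 3134 and near background at 5.10 and 5.89 in AtT-20, a difference of 7.09 ± 0.39 (SE, adjusted p = 1.79e-08). Ccnd2 (3.84) and the kinase Cdk6 (5.84) were also higher in 3134, and Ccnd3 (0.16), the remaining D-type cyclin, did not pass the test. Myc was at 10.97 and 11.07 in 3134 and 6.20 and 5.18 in AtT-20, whereas Mycn was at 4.05 and 3.87 in 3134 and 7.42 and 8.00 in AtT-20. Mycl was at 4.64 and 4.70 in 3134 and 7.32 and 6.93 in AtT-20. The lines did not overlap for any of the 3 Myc genes, nor for 76.5% of all tested genes. The tumour suppressor Rb1 (2.86) was higher in 3134, and Plagl1 (-5.11), Bcl2 (-2.57), Cdkn1c (-2.96) and Cdkn1a (-1.75) in AtT-20. Hras, at 10.15 and 9.64 in AtT-20 and 8.96 and 9.18 in 3134, differed by -0.83 ± 0.26 (SE, adjusted p = 0.0174), and did not pass the test without the first array of 3134 (-0.71) or of AtT-20 (-0.57). Of 38 tested genes on this list 14 were higher in 3134 and 12 in AtT-20. Of 10 tested imprinted genes 7, among them Sgce (-5.09), Plagl1 and Igf2r (-1.60), were higher in AtT-20 and 1 in 3134. The shares called were 68.4% and 80% against 53.7% of all tested genes. On the deposited scale without the block 9 genes of the growth-control list were higher in 3134 and 6 in AtT-20. There 4 imprinted genes were higher in AtT-20 and 0 in 3134.

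Rhoa, a GTPase that drives actin stress fibres and is expressed in most cell types, was among the largest differences, and its neighbours on chromosome 9 were looked at after its value was seen. Rhoa was at 12.37 and 12.40 in 3134 and 4.88 and 4.04 in AtT-20, and all 13 of its 13 probesets were higher in 3134. In gene order Nicn1 and Tcta came before it and Gpx1 and Usp4 after it, and all 5 genes were near background in AtT-20 and called higher in 3134. The differences of its neighbours were 4.52 for Nicn1, 2.18 for Tcta, 4.30 for Gpx1 and 4.64 for Usp4, and all 23 probesets of Usp4 were higher in 3134. Dag1 (4.11), next to Nicn1, was above background in AtT-20 at 6.74 and 6.81, and on the other side, past a pair of untested predicted genes, Klhdc8b (-2.12) was higher in AtT-20. Over 14988 genes in order only 2 runs of at least 4 neighbours were called in the same direction with a difference of at least 2 and the lower line near background. Both were higher in 3134, and the other one held 6 related interferon-inducible genes on chromosome 1.

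**Figure D4:**
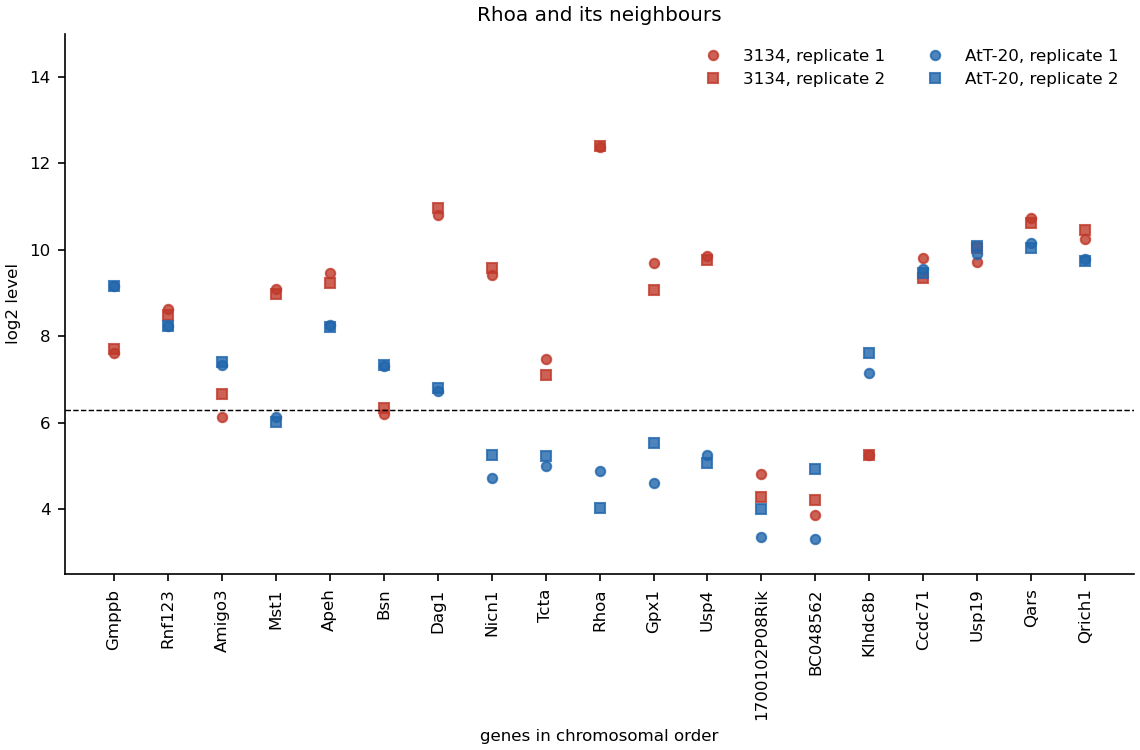
Log2 level of Rhoa and the 9 genes on each side of it in chromosomal order (x axis) on each of the 4 untreated arrays, with the level needed for testing as a dashed line. From Nicn1 to Usp4 all AtT-20 points lie below the line and all 3134 points above it.

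Differences of the untreated lines were mostly also present in cells treated with dexamethasone. At 2 h 2403 genes (23.4%) were higher in 3134 and 3129 (30.4%) in AtT-20, and at 4 h 2433 (23.7%) and 3028 (29.4%). Of the 5526 genes called at 0 h, 5491 had the same sign at 2 h and 5469 at 4 h, and 4901 and 4751 were called in the same direction; the 3 comparisons share the same estimate of the spread. All 38 called granule genes, all 39 called matrix genes and all 7 called corticotroph markers were called in the same direction at both times. Pomc differed by -8.54 at 2 h and -8.47 at 4 h, and Nr3c1 by 1.09 and 1.01. The change of the line difference from 0 h to the mean of 2 and 4 h was called for 58 genes (0.564%), or 268 (2.61%) with the replicate block. Without 1 of the 3134 arrays at 0 h the count was 25 (replicate 1) or 23 (replicate 2).

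**Figure D5:**
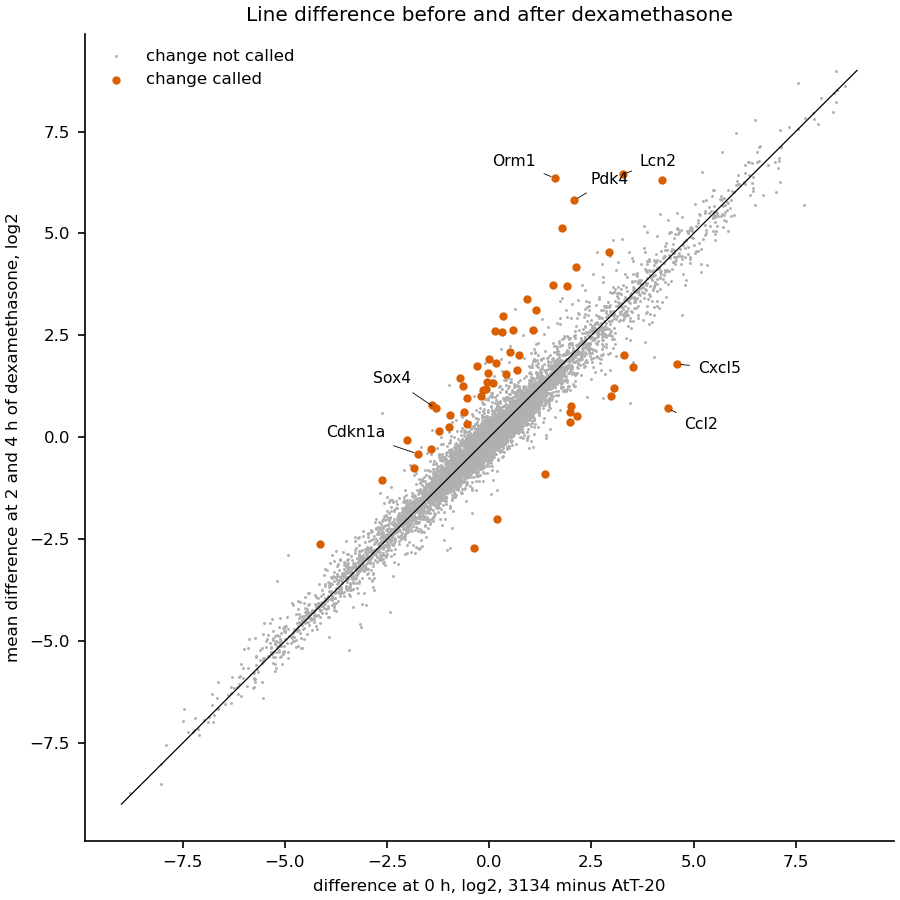
Difference between the lines at 0 h (x axis) and the mean of the differences at 2 and 4 h of dexamethasone (y axis), log2, 3134 minus AtT-20, for every tested gene, with the 58 genes whose difference changed in colour and some of them named. Most points lie along the diagonal, and Orm1, Pdk4 and Lcn2 lie above it while Ccl2 and Cxcl5 lie below it.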

How the data were processed

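The authors deposited 1 table of log2 probeset values for 15 mouse exon arrays, made by RMA with Affymetrix Expression Console according to the submitters' processing notes. The software version is not given in the sources used here. The deposited columns had medians from 6.76 to 8.14, so the 15 arrays were quantile normalized. Of 228090 probesets, 207232 mapped to exactly 1 gene in the platform annotation; the value of a gene is the median over its probesets (at least 3; median 12 in tested genes), and a single value per gene hides probesets or isoforms that disagree. Symbols were updated through RefSeq for 2111 of 16207 genes, and 41 were kept as given.

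Testing was limited to genes for which at least 1 of the 8 group means (line and time) reached the 40th percentile of all gene values. limma 3.58.1 (R 4.3.3; lmFit and eBayes, 7 residual degrees of freedom, 2-sided) compared 3134 with AtT-20 at 0, 2 and 4 h over all 15 arrays, with Benjamini-Hochberg adjustment at 0.05. Data were simulated with only 50 changed genes of each size among 10283. There 4% of log2 differences of 0.5 were found, 44% of 1, 88% of 2 and 100% of 4. In the measured data 5526 genes were called at 0 h, 2095 of them with a difference under 2-fold. The share found when that many genes differ was not tested. The titles carry serial numbers, by which the arrays of each line were split here into a low and a high series. The high numbers differ between the lines, with 8966 to 8971 for 3134 and 9833 to 9837 for AtT-20. The labels do not say what the numbers stand for. Arrays called low deviated together from their group means (correlations 0.49 to 0.59 within a line and 0.27 to 0.38 between lines). A fit with the series as a replicate block, separate for each line, was therefore run too. Members and lists were chosen with earlier results of these data known. Named genes were the 15 largest differences each way, up to 8 members each way of every list by smallest p, any measured corticotroph marker, Hox gene, nuclear receptor or sex-linked transcript, and Nr3c1, Pomc and Hras; others were named after their values were seen. Alternatives varied scaling, block, filter, probeset summary, arrays and call rule.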

Additional observations from a re-analysis of the deposited data

Results flagged for a closer look

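The difference between the lines changed between the untreated cells and the mean of 2 and 4 h of dexamethasone for 9 genes named in the text (limma, adjusted over all 10283 tested genes). It became larger in favour of 3134 for Orm1, an acute phase protein of plasma, by 4.75 ± 0.46 (SE, adjusted p = 6.17e-04), for Pdk4 by 3.74 ± 0.22 (SE, adjusted p = 1.46e-05), for the siderophore-binding protein Lcn2 by 3.18 ± 0.34 (SE, adjusted p = 8.79e-04) and for Pfkfb3 by 2.18 ± 0.27 (SE, adjusted p = 0.00261). For the cell cycle inhibitor Cdkn1a, higher in AtT-20 at 0 h, it moved towards 3134 by 1.34 ± 0.23 (SE, adjusted p = 0.0211). It became smaller for the chemokines Ccl2, with a change of -3.65 ± 0.71 (SE, adjusted p = 0.0494), Cxcl5, with -2.80 ± 0.36 (SE, adjusted p = 0.00362), and Cxcl1, with -1.64 ± 0.27 (SE, adjusted p = 0.0185), and for Pparg, with -1.34 ± 0.26 (SE, adjusted p = 0.0467). Ccl2 differed by 4.36 at 0 h and 0.31 at 4 h, and Orm1 by 1.61 and 6.75. With the replicate block the change was called for these 9 and for 15 more named genes. Among the 15 were Mt2, with a change of 3.22 (limma, adjusted p = 1.88e-05 with the block and 0.104 without it), Ankrd1 with -2.01, Ror1 with 1.68, Ccn2 with 1.63, Nqo1 with -1.49 and Kitl with 1.42. Orm1, Lcn2, Ccl2, Cxcl5, Cxcl1 and Ccn2 were chosen after their values were seen.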

How the results depend on the processing

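At 0, 2 and 4 h, 5526, 5532 and 5461 genes were called, and the change of the line difference 58. On the deposited scale the counts were 2013, 2004, 1824 and 3, and with limma's treat against a log2 difference of 1 they were 2067, 2071, 2054 and 2. With the replicate block, which groups the arrays of each line by serial number, the change was called for 268 genes, or 147 on the deposited scale. With the mean over probesets it was 139. Other alternatives kept the counts within 1.5 times, and the block moved the count at 0 h to 6780. Leaving out single arrays gave 4489 to 4908 genes at 0 h, 4469 to 4793 at 2 h, 4582 to 4971 at 4 h and 23 to 51 for the change. Uncalled differences that turned sign were Lhb (-0.061 with arrays centred on their median, -0.023 with the mean over probesets, and -0.16 to 0.34 on leaving out single arrays) and Col1a1 (-0.11 to 0.50 on leaving out single arrays). With the mean over probesets Cdh2 (0.47), Pkm (0.41), Snai2 (1.04), Zeb1 (0.65) and Tgfbr1 (0.48) were called, and Hras (-0.23) and Nr2f1 (-0.42) were not. Tgfbr1 (0.49) was also called with arrays centred on their median, and Twist1 (0.76) on the deposited scale with the block. Apart from Snai2, Zeb1 and Tgfbr1, the block changed no call of a named gene at 0 h; for the change of the line difference it added 15 named genes and removed none. The causes were not tested. With 2 arrays a group, small differences are the least certain; each array left out leaves a lone array that is assumed to vary like the other groups.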

Other observations

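The run of neighbouring genes on chromosome 1 that were higher in 3134 held, with log2 differences of 3134 minus AtT-20, Aim2 (6.64), Ifi209 (2.62), Ifi204 (6.07), Ifi203 (4.42), Ifi202b (5.48) and Ifi205 (4.86), sensors of DNA and their relatives, all near background in AtT-20. Ifi209, with a mean level of 5.89 in 3134, was near background in that line as well. These 6 genes are related copies, so their separate values are uncertain.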
